A study of Mus musculus with 5 samples.

Results

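The 10 genes described here carry glucose into the cell, break it down to pyruvate, turn pyruvate into lactate and back, and move lactate across the membrane. They were taken by name (*Slc2a1*, *Hk1*, *Hk2*, *Pfkfb3*, *Aldoa*, *Aldoc*, *Pkm*, *Ldha*, *Ldhb* and *Slc16a1*) and matched 11 of the 33696 entries in the gene lists of the files, since 2 entries bear the symbol *Aldoa*. Their counts were followed in Müller glia of the mouse retina and, beside these, in rod-like, cone-like, bipolar-like and microglia-like cells of the same libraries.

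Glycolysis splits glucose into pyruvate, which either enters the mitochondria or is reduced to lactate. Photoreceptors are known for making lactate from glucose even where oxygen is present, and Müller glia, which span the retina between its vessels and its neurons, take up glucose and exchange lactate with neurons. Several steps have paralogous enzymes, and cell types differ in which of them they use.

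Adult Glast-CreERT2; Rosa26-Ai65 mice on a C57BL/6J background, males and females pooled, 12 to 20 weeks old, received tamoxifen and an AAV of the ShH10 serotype. The control vector was ShH10-GFAP-mKate2, which encodes a fluorescent protein, and the test vector was ShH10-GFAP-Yap5SA, which encodes a form of the growth regulator YAP that escapes inactivation by phosphorylation. The retinas were taken 56 days after injection, 16 of them pooled for mKate2 AAV and 21 for Yap5SA AAV, and tdTomato+ cells were sorted and run on the 10x Chromium 3′ v3.1 platform. The deposited files hold UMI counts per gene and cell for 2 libraries of mKate2 AAV and 3 of Yap5SA AAV.

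The GFAP promoter and Glast-CreERT2 aim at Müller glia, and tdTomato of the Ai65 allele needs FlpO besides Cre, so the sorted cells are meant to be transduced Müller glia of pooled animals. Other cells were nevertheless present. Of the cell barcodes, 1361 occurred in both Yap5SA AAV replicate 1 and replicate 2, which is 99.8% of the smaller library, while other pairs of libraries shared 0 to 7. Summed over the cells, replicates 1 and 2 differed by less than counting error gives (a chi-square of 0.410 per degree of freedom over 18069 genes, against 60.3 over 16482 genes for the Müller glia of Yap5SA AAV replicates 1 and 3). Replicate 2 was therefore left out, and each condition has 2 libraries. The headers name Cell Ranger 8.0.0 for replicate 1 of both conditions and 9.0.1 for mKate2 AAV replicate 2 and Yap5SA AAV replicate 3, which gives 1 library of each condition per version. Whether the libraries come from separate animals is not stated, so p-values measure the spread between these libraries.

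The 4 libraries held 15293 cells. Totals were 13614102 and 50938304 UMIs for replicates 1 and 2 of mKate2 AAV, and 13132765 and 16035182 UMIs for replicates 1 and 3 of Yap5SA AAV. Of 10749 cells with at least 1000 UMIs and at most 15% mitochondrial counts, 6540 were taken as Müller glia because *Glul*, *Rlbp1*, *Slc1a3*, *Clu* and *Aqp4* made up at least 0.5% of their UMIs. By library these were 1498, 2898, 803 and 1341 cells, first for replicates 1 and 2 of mKate2 AAV and then for replicates 1 and 3 of Yap5SA AAV, the order used for 4 values from here on. They held 11878565, 18588061, 9625755 and 7833275 UMIs in that order, with medians of 6194.5, 2918.5, 10778 and 2920 UMIs per cell. Within 0.1 percentage points of the 0.5% limit, on either side, lay 403 cells.

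Müller glia markers that played no part in this choice (*Sox9*, *Lhx2*, *Apoe*, *Dkk3*, *Car14* and *Vim*) were detected in each of the 4 libraries, 6 of 6, with sums of 12218, 14892, 13769 and 10291 CPM (a gene's UMIs per 1000000 UMIs of the summed cells). Markers of other cells were also found in the Müller glia. The 5 pigment epithelium markers summed to 8.67, 465, 208 and 3665 CPM, led by *Ttr*, with *Lrat* at 0 in mKate2 AAV replicate 1. The 10 dissociation stress genes, led by *Fos*, summed to 670, 19691, 1945 and 12523 CPM. Pigment epithelium markers and stress genes were thus highest in the libraries processed with Cell Ranger 9.0.1.

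Other cells were named by their own marker genes at the same 0.5% limit. Microglia-like cells numbered 30, 927, 152 and 65 in the same order, rod-like cells 7, 654, 2 and 625, bipolar-like cells 0, 325, 0 and 50, and cone-like cells 1, 37, 0 and 47. The cone-like cells of mKate2 AAV replicate 2 and Yap5SA AAV replicate 3 had median rod marker shares of 0.544% and 0.965%. Both shares lie above the 0.5% limit, and their part in the levels of cone-like cells was not tested. Classes with at least 20 cells in each of 2 or more libraries were compared with Müller glia, so microglia-like cells come from 4 libraries and the others from mKate2 AAV replicate 2 and Yap5SA AAV replicate 3 alone. Amacrine-like cells, 21 and 4 in these 2 libraries, fell short of this and were not analysed here. In these sums 11 of 11 microglia, 8 of 8 cone and 12 of 12 bipolar markers were detected. As the classes were named by their own marker genes, this is no separate check of the names.

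Positions of the 10 genes are those of the GRCm39 assembly to which the reads were aligned. *Slc2a1* (ENSMUSG00000028645) lies at chr4:118965908-118996365, *Hk1* (ENSMUSG00000037012) at chr10:62104621-62215687, *Hk2* (ENSMUSG00000000628) at chr6:82699740-82751469 and *Pfkfb3* (ENSMUSG00000026773) at chr2:11476244-11558888. *Aldoa* (ENSMUSG00000030695) lies at chr7:126393822-126399923 and *Aldoc* (ENSMUSG00000017390) at chr11:78213619-78218889. *Pkm* (ENSMUSG00000032294) lies at chr9:59563364-59586663, *Ldha* (ENSMUSG00000063229) at chr7:46490899-46505061, *Ldhb* (ENSMUSG00000030246) at chr6:142435672-142454586 and *Slc16a1* (ENSMUSG00000032902) at chr3:104545811-104565780. The other entry named *Aldoa* (ENSMUSG00000114515, chr7:126393858-126408507) overlaps *Aldoa* on the same strand and held 0 to 9 UMIs in any sum, so *Aldoa* below is ENSMUSG00000030695.

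Yap5SA AAV and mKate2 AAV were compared first, to ask whether Müller glia given active YAP 56 days before carried these transcripts at another level. By that day the paper no longer detected the YAP5SA protein, by staining or by Western blot. The comparison therefore does not cover the time when the protein was present. None of the 10 genes passed the test. For each of the 10 the libraries of the 2 conditions overlapped. The share of all genes with such overlap was not computed, so this cannot be read as a trait of the members. The widest range was that of *Hk2*, whose highest library was 4.78 times its lowest, and the narrowest that of *Pkm* at 1.31 times.

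*Slc2a1*, which encodes the glucose transporter GLUT1, had 218 and 267 CPM in replicates 1 and 2 of mKate2 AAV, and 188 and 335 CPM in replicates 1 and 3 of Yap5SA AAV. Its lowest and its highest library were thus both of Yap5SA AAV. *Hk1*, the hexokinase found in most tissues, had 80.1 and 106 CPM with mKate2 AAV and 80.2 and 83.5 CPM with Yap5SA AAV. Here mKate2 AAV replicate 2 stood above the other libraries. *Hk2*, the hexokinase that is regulated in many tissues, had 15 and 71.6 CPM with mKate2 AAV and 35.1 and 63.6 CPM with Yap5SA AAV. *Pfkfb3* encodes the enzyme that makes fructose 2,6-bisphosphate, an activator of phosphofructokinase, and had 8.50 and 34.8 CPM with mKate2 AAV and 14.8 and 24.5 CPM with Yap5SA AAV.

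*Aldoa* and *Aldoc* encode aldolases, which split fructose 1,6-bisphosphate. *Aldoa* had 322 and 460 CPM with mKate2 AAV and 417 and 539 CPM with Yap5SA AAV, and *Aldoc* had 668 and 867 CPM with mKate2 AAV and 594 and 713 CPM with Yap5SA AAV. *Aldoa* was thus lowest and *Aldoc* highest in a library of mKate2 AAV, with overlap in both. For *Pkm*, the pyruvate kinase gene, the libraries of mKate2 AAV had 268 and 352 CPM and those of Yap5SA AAV 273 and 339 CPM.

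The lactate dehydrogenase subunit of *Ldha* favours the reduction of pyruvate to lactate, and that of *Ldhb* the reverse reaction. *Ldha* had 205 and 251 CPM with mKate2 AAV and 315 and 217 CPM with Yap5SA AAV. *Ldhb* had 242 and 253 CPM with mKate2 AAV and 203 and 347 CPM with Yap5SA AAV, so the Yap5SA AAV libraries lay on both sides of the controls for *Ldhb*. *Slc16a1*, which encodes the lactate and pyruvate transporter MCT1, had 220 and 133 CPM with mKate2 AAV and 141 and 214 CPM with Yap5SA AAV. Each condition had 1 library near each end of its range. All members except *Ldha* and *Slc16a1* were higher in both libraries of Cell Ranger 9.0.1 than in both of 8.0.0, as were the stress genes, whose part in the result was not tested. The share of all genes that do so was not computed, so this cannot be read as a trait of the members. Without cells that held another class's markers it failed for *Hk1*, at 80.0 and 80.4 CPM with 8.0.0 and 96.5 and 72.1 CPM with 9.0.1.

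**Figure D1:**
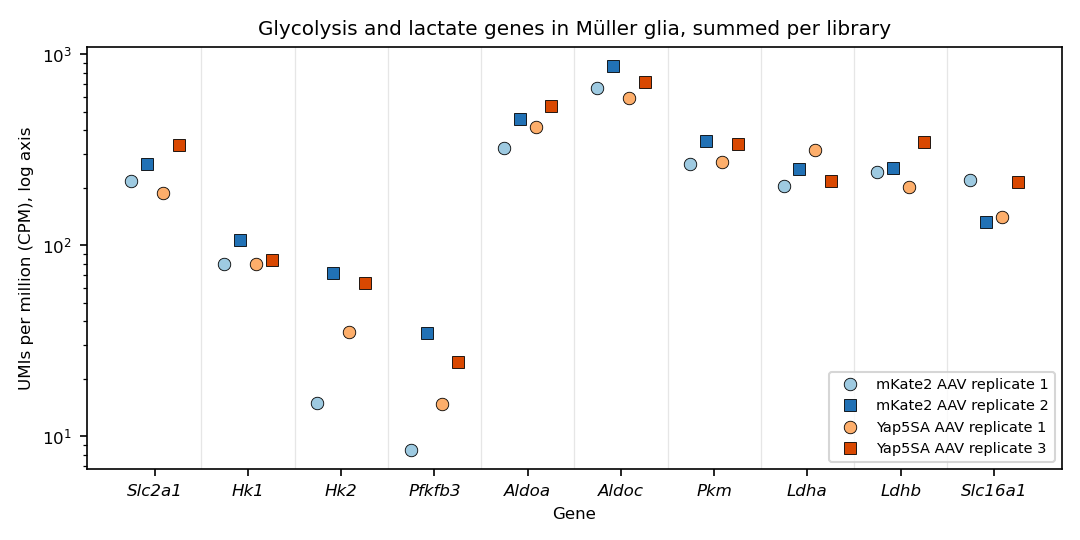
Level of each of the 10 genes in the summed Müller glia of each library, in CPM on a log axis, with 1 point per library and colours for the AAV. The points of the 2 conditions overlap for every gene, and the widest spread is that of *Hk2*, from 15 CPM in mKate2 AAV replicate 1 to 71.6 CPM in mKate2 AAV replicate 2.

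Across 15285 genes tested, the quasi-likelihood test of edgeR, with p-values adjusted by Benjamini-Hochberg, called 0 at an adjusted p under 0.05, so percent called was 0 for all genes and 0 of 10 for the members. An unadjusted p under 0.05 was found for 30 genes, and DESeq2 called 0, with 91 at an unadjusted p under 0.05. The log2 differences, Yap5SA minus mKate2 AAV, lay between −0.35 for *Aldoc* (standard error 0.37, lower in 1 library and between the control libraries in the other) and 0.17 for *Aldoa* (standard error 0.38). Their median was −0.03, the same as that of all genes tested (−0.03). *Hk2* had a difference of 0.02 with a standard error of 0.83 and *Pfkfb3* one of −0.30 with a standard error of 0.78, the least precise of the members.

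Within the pair of libraries processed with Cell Ranger 8.0.0 the log2 ratio of Yap5SA to mKate2 AAV was −0.21 for *Slc2a1*, and within the pair of 9.0.1 it was 0.33. The ratios in the same order were 0.0026 and −0.35 for *Hk1*, 1.23 and −0.17 for *Hk2*, and 0.79 and −0.51 for *Pfkfb3*. *Aldoa* had 0.37 and 0.23 and *Aldoc* −0.17 and −0.28, the only members whose ratios had the same sign within both versions. Without cells that held another class's markers this no longer held for *Aldoa*. Within 9.0.1 it then had 433 CPM in mKate2 AAV replicate 2 and 431 CPM in Yap5SA AAV replicate 3. For *Pkm* the ratios over all Müller glia were 0.03 and −0.05, for *Ldha* 0.62 and −0.21, for *Ldhb* −0.25 and 0.45 and for *Slc16a1* −0.65 and 0.69. With the version as a term of the fit edgeR called 0 genes, with 151 at an unadjusted p under 0.05. The sign of every member except *Aldoc* turned with 1 library left out. Without mKate2 AAV replicate 1 the difference of *Hk2* was −0.73 and that of *Pfkfb3* −1.02, and without mKate2 AAV replicate 2 they were 1.75 and 1.23. Without Yap5SA AAV replicate 1 *Slc2a1* had 0.38 and *Ldha* −0.16, and without Yap5SA AAV replicate 3 *Slc2a1* had −0.49 and *Ldhb* −0.41. *Aldoc* lay between −0.61 without mKate2 AAV replicate 1 and −0.01 without mKate2 AAV replicate 2.

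Müller glia were next compared with the other classes, to ask which of these transcripts set them apart among retinal cells. *Slc2a1*, *Aldoc* and *Ldhb* were higher in Müller glia than in each of the 4 other classes. *Hk2* was lower in Müller glia than in rod-like, cone-like and microglia-like cells, and *Hk1* lower than in rod-like, cone-like and bipolar-like cells. *Aldoa*, *Pkm* and *Ldha* were lower than in rod-like cells, the class where their levels were highest. *Slc16a1* was higher in Müller glia than in bipolar-like and microglia-like cells, while its levels in rod-like and cone-like cells overlapped with those of Müller glia. All members passed the filter on low counts in this fit, and edgeR tested 16676 genes.

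Counts of members past the test stood beside a wide background. Against microglia-like cells edgeR called 52.1% of all genes, 30.6% higher and 21.6% lower in Müller glia, and 7 of the 10 members, 5 higher and 2 lower. Against rod-like cells it called 44.7% of genes, 27.3% higher and 17.4% lower, and 9 members, 4 higher and 5 lower. For bipolar-like cells the background was 39.4%, with 23.7% higher and 15.7% lower, and 5 members were called, 4 higher and 1 lower. A fit of these 2 classes alone called 8824 of 15300 genes and 9 members, 6 higher and 3 lower, among them *Hk2* (1.43), *Pfkfb3* (1.23), *Aldoa* (−0.72) and *Pkm* (−0.70). Against bipolar-like cells the fit of all classes with no filter on low counts called 6986 of 26147 genes and 6 members, all higher. For cone-like cells the background was 34.2%, with 23% higher and 11.2% lower, and 6 members were called, 4 higher and 2 lower. With thinned cells these were 2589 of 10890 genes and 3 members. In every call on a member all libraries with both classes had the direction of the call, 4 of 4 for microglia-like cells and 2 of 2 for the others. The numbers of genes called against rod-like, bipolar-like and cone-like cells were 7454, 6568 and 5700, and these fell to 4023, 2836 and 2988 without mKate2 AAV replicate 2 and to 4234, 3743 and 2851 without Yap5SA AAV replicate 3. Members called against rod-like cells were then 8 and 4, and against bipolar-like cells 3 and 4. DESeq2's scaling moved the median of all genes by −0.18 against bipolar-like and −0.22 against cone-like cells, relative to TMM. Ratios of CPM over the summed libraries, which have no TMM scaling, differed from the fitted values. Against bipolar-like cells *Gapdh* had a ratio of 0.965 and a fitted log2 difference of 0.38, and *Ldha* 0.987 and 0.42, so the direction turned. Against cone-like cells *Ldha* had a ratio of 0.452 and a fitted difference of −0.59.

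*Slc2a1* had its highest level in Müller glia, at 252 ± 64.1 CPM (SD, n = 4 libraries). In microglia-like cells it had 28.3, 29.4, 68.2 and 46.7 CPM in the 4 libraries, in rod-like cells 104 and 80.7, in cone-like cells 61.2 and 76.6 and in bipolar-like cells 42.5 and 40.1 CPM (mKate2 AAV replicate 2 and Yap5SA AAV replicate 3). The lowest library of Müller glia, at 188 CPM, was above every library of the other classes. With each cell thinned to 1000 UMIs this no longer held, with 120 CPM in Müller glia of mKate2 AAV replicate 2 and 128 CPM in cone-like cells of Yap5SA AAV replicate 3, the latter on 6 UMIs. Rod-like cells came next, and cone-like, microglia-like and bipolar-like cells followed with overlapping neighbours. On the log2 scale Müller glia exceeded bipolar-like cells by 2.92 (standard error 0.39, adjusted p = 3.37e-05, higher in 2 of 2 libraries) and microglia-like cells by 2.23 (standard error 0.29, adjusted p = 1.36e-05, higher in 4 of 4). The difference was 2.41 against cone-like and 1.64 against rod-like cells (adjusted p = 0.000234 and 0.00177, each higher in 2 of 2). Without Yap5SA AAV replicate 3 the difference from rod-like cells was 1.34 and no longer passed, and with thinned cells the difference from cone-like cells was 1.35 and did not pass. Thinning also lowered the differences from bipolar-like and rod-like cells to 1.59 and 0.98, which still passed.

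The hexokinases, which trap glucose in the cell by phosphorylation, were highest in other classes. *Hk1* was highest in rod-like cells, at 552 and 374 CPM, followed by cone-like cells at 289 and 174 CPM and bipolar-like cells at 183 and 160 CPM. Müller glia held 87.6 ± 12.7 CPM (SD, n = 4), under every library of these classes, and microglia-like cells 25.3 ± 13.3 CPM (SD, n = 4). The log2 difference of Müller glia was −2.40 against rod-like cells (standard error 0.32, adjusted p = 2.94e-05, lower in 2 of 2) and 1.52 against microglia-like cells (standard error 0.28, adjusted p = 0.00039, higher in 4 of 4). Against cone-like and bipolar-like cells it was −1.05 and −0.86 (adjusted p = 0.0227 and 0.0478, each lower in 2 of 2). The call against bipolar-like cells was lost with any 1 of the 4 libraries left out, at −0.81 and −1.25 without mKate2 AAV replicates 1 and 2 and −0.76 and −0.78 without Yap5SA AAV replicates 1 and 3. It was also lost with no filter on low counts (−0.77), with a Müller glia marker share of at least 2% (−0.87) and with cells thinned to 1000 UMIs (−0.25). That against cone-like cells was lost without mKate2 AAV replicate 2 (−1.29), without Yap5SA AAV replicate 3 (−1.13) and with cells thinned to 1000 UMIs (−0.51).

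*Hk2* had 554 and 700 CPM in rod-like cells, 346 and 825 CPM in cone-like cells and 269, 134, 495 and 114 CPM in microglia-like cells of the 4 libraries. Müller glia, at 46.3 ± 26.1 CPM (SD, n = 4), lay under all of these and overlapped with bipolar-like cells, at 29.1 and 28.1 CPM. The log2 difference of Müller glia was −3.63 against rod-like cells (standard error 0.56, adjusted p = 0.000109), −3.18 against cone-like cells (standard error 0.57, adjusted p = 0.00056), each lower in 2 of 2 libraries, and −2.77 against microglia-like cells (standard error 0.52, adjusted p = 0.000385, lower in 4 of 4). Leaving out mKate2 AAV replicate 2 or Yap5SA AAV replicate 3 made it −4.29 or −2.34 against cone-like cells, and leaving out mKate2 AAV replicate 2 made it −3.38 against microglia-like cells. Over all alternatives the difference ran from −4.76 to −3.08 against rod-like, from −4.53 to −2.34 against cone-like and from −3.75 to −2.26 against microglia-like cells. Against bipolar-like cells it was 0.92 (standard error 0.61) and did not pass. It passed with no filter on low counts (1.01) and in a fit of these 2 classes alone (1.43), and turned to −0.37 with a Müller glia marker share of at least 2% and to −0.77 with cells thinned to 1000 UMIs.

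Part of the *Hk2* in Müller glia came from cells that also held rod markers at 0.5% or more. Such cells numbered 11 and 80 in mKate2 AAV replicates 1 and 2, 0 in Yap5SA AAV replicate 1 and 151 in Yap5SA AAV replicate 3. In the libraries that had them they held 10.1%, 23.7% and 38.4% of the *Hk2* UMIs of Müller glia, with 0.379%, 7.25% and 9.42% of all UMIs of Müller glia. For *Hk1* these shares were 0.631%, 16.2% and 20.2%.

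*Pfkfb3* was highest in microglia-like cells, with 130, 105, 157 and 116 CPM in the 4 libraries, and Müller glia held 20.6 ± 11.5 CPM (SD, n = 4). The range of Müller glia overlapped with the 18.5 and 9.74 CPM of bipolar-like cells. From these the log2 difference of Müller glia was 0.92 (standard error 0.41) and did not pass. Over 11 alternatives it ran from −0.35 to 1.23 and passed in 3. Rod-like cells had 9.29 and 8.07 CPM and cone-like cells, with 2 UMIs in all, 1.65 and 1.5 CPM. The log2 difference of Müller glia from microglia-like cells was −3.10 (standard error 0.31, adjusted p = 1.09e-06, lower in 4 of 4) and from rod-like cells 1.55 (standard error 0.41, adjusted p = 0.00676, higher in 2 of 2). The latter call was lost without mKate2 AAV replicate 2 (1.22), without Yap5SA AAV replicate 3 (1.63), with cells thinned to 1000 UMIs (0.24) and with a Müller glia marker share of at least 2% (0.46). Over cone-like cells the ratio of CPM was 20.2, with a counting interval of 5.57 to 167. The fitted log2 difference was 4.32 (adjusted p = 0.000491, higher in 2 of 2 libraries), 3.73 without mKate2 AAV replicate 2 and 5.84 and not past the test with thinned cells, and it depends on the prior count at so few UMIs.

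**Figure D2:**
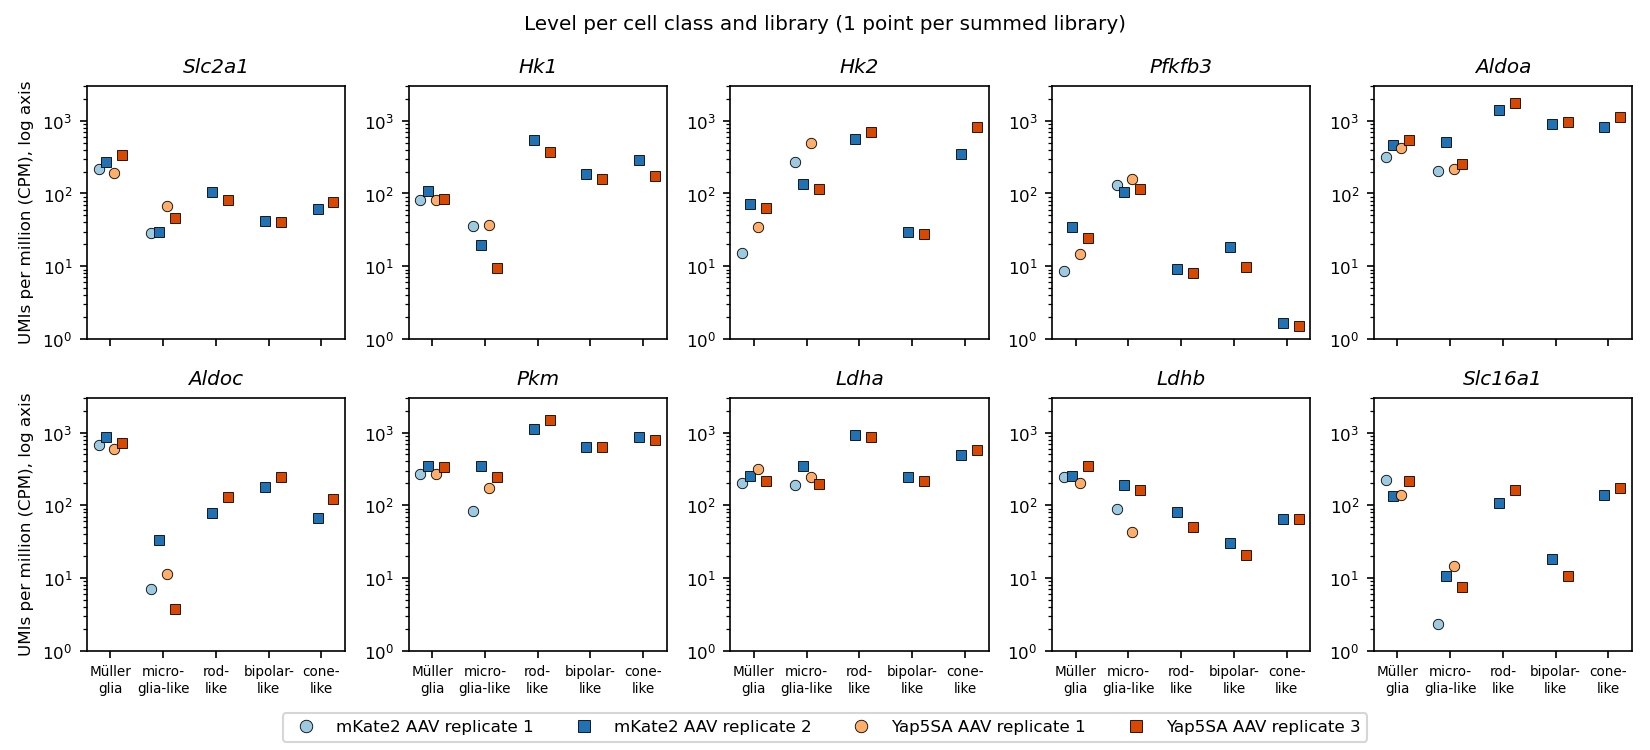
Level of each gene in Müller glia, rod-like, cone-like, bipolar-like and microglia-like cells, in CPM on a log axis, with 1 point per library. *Slc2a1*, *Aldoc* and *Ldhb* are highest in Müller glia (means of 252, 710 and 261 CPM over 4 libraries), and *Hk1*, *Aldoa*, *Pkm* and *Ldha* in rod-like cells (463, 1575, 1290 and 893 CPM over 2 libraries).

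The 2 aldolases had their highest levels in different classes. *Aldoc* had its highest level in Müller glia, at 710 ± 115 CPM (SD, n = 4), against 180 and 248 CPM in bipolar-like, 78.1 and 129 CPM in rod-like and 66.2 and 120 CPM in cone-like cells. Microglia-like cells had 7.07, 33.7, 11.3 and 3.74 CPM. Rod-like and cone-like cells overlapped, and the other neighbours in this order did not. The log2 difference of Müller glia was 5.04 against microglia-like cells (standard error 0.50, adjusted p = 1.02e-06, higher in 4 of 4) and 3.26 against rod-like cells (standard error 0.62, adjusted p = 0.000635, higher in 2 of 2). It was 3.73 against cone-like and 2.35 against bipolar-like cells (adjusted p = 0.000438 and 0.00575, each higher in 2 of 2). Without mKate2 AAV replicate 2 these 4 differences were 5.95, 2.28, 2.49 and 1.36, the last of which did not pass, and without Yap5SA AAV replicate 3 those from rod-like, cone-like and bipolar-like cells were 4.22, 4.86 and 3.11.

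*Aldoa* had 1415 and 1735 CPM in rod-like, 817 and 1137 CPM in cone-like and 897 and 956 CPM in bipolar-like cells. Müller glia, at 434 ± 90.4 CPM (SD, n = 4), were under all of these and overlapped with microglia-like cells, at 297 ± 142 CPM (SD, n = 4). With cells thinned to 1000 UMIs they overlapped with cone-like cells too, at 616 CPM in Yap5SA AAV replicate 3 against 486 CPM in cone-like cells of mKate2 AAV replicate 2. The log2 difference of Müller glia from rod-like cells was −1.39 (standard error 0.39, adjusted p = 0.0101, lower in 2 of 2). It was −0.94 without Yap5SA AAV replicate 3 and −0.87 with cells thinned to 1000 UMIs, and did not pass in either. Differences from cone-like, bipolar-like and microglia-like cells (−0.37, −0.48 and 0.23) did not pass the test, but that from bipolar-like cells passed in a fit of these 2 classes alone (−0.72) and turned to 0.20 with thinned cells. That from cone-like cells turned to 0.25 without Yap5SA AAV replicate 3 and to 0.35 with thinned cells.

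*Pkm*, which makes pyruvate in the last step of glycolysis, had 1111 and 1470 CPM in rod-like, 868 and 802 CPM in cone-like and 627 and 637 CPM in bipolar-like cells. Its level in Müller glia was 308 ± 43.3 CPM (SD, n = 4) and overlapped with that of microglia-like cells, 211 ± 113 CPM (SD, n = 4). The log2 difference from rod-like cells was −1.52 (standard error 0.42, adjusted p = 0.00808, lower in 2 of 2), and −0.90 and not past the test without Yap5SA AAV replicate 3. From cone-like, bipolar-like and microglia-like cells it was −0.53, −0.34 and 0.32, and none of these passed. In fits of 2 classes alone the first 2 passed, at −0.94 and −0.70, and with thinned cells they turned to 0.19 and 0.22. That from bipolar-like cells was 0.021 without Yap5SA AAV replicate 3.

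*Ldha* followed the same order as *Pkm* at its upper end, with 915 and 872 CPM in rod-like and 488 and 574 CPM in cone-like cells. Müller glia (247 ± 49.3 CPM, SD, n = 4), microglia-like cells (244 ± 70.5 CPM, SD, n = 4) and bipolar-like cells (247 and 219 CPM) overlapped. The log2 difference of Müller glia from rod-like cells was −1.66 (standard error 0.35, adjusted p = 0.00132, lower in 2 of 2), and −1.28 and not past the test without Yap5SA AAV replicate 3. From the cone-like, microglia-like and bipolar-like cells it was −0.59, −0.32 and 0.42, none past the test. DESeq2 called that from cone-like cells (−0.81), which was 0.022 without Yap5SA AAV replicate 3, and that from bipolar-like cells passed with thinned cells (1.31).

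*Ldhb* was highest in Müller glia, at 261 ± 60.9 CPM (SD, n = 4). Microglia-like cells had 89.5, 192, 42.8 and 164 CPM, rod-like cells 80.9 and 51, cone-like cells 64.5 and 64.6 and bipolar-like cells 30.1 and 20.6 CPM. The lowest library of Müller glia, at 203 CPM, was above all of these, and microglia-like, rod-like and cone-like cells overlapped with one another. With cells thinned to 1000 UMIs Müller glia of Yap5SA AAV replicate 1, at 192 CPM, were below the microglia-like cells of mKate2 AAV replicates 1 and 2, at 267 CPM (on 8 UMIs) and 242 CPM. Müller glia exceeded bipolar-like cells by 4.14 on the log2 scale (standard error 0.47, adjusted p = 7.87e-06) and rod-like cells by 2.66 (standard error 0.43, adjusted p = 0.000138), each in 2 of 2 libraries. The difference from cone-like cells was 3.00 (adjusted p = 0.000123, higher in 2 of 2) and that from microglia-like cells 0.95 (standard error 0.30, adjusted p = 0.0156, higher in 4 of 4). This last call was lost without mKate2 AAV replicate 1 (0.81), without Yap5SA AAV replicate 1 (0.59), in a fit of these classes alone (0.88), with cells thinned to 1000 UMIs (0.69) and with deep Müller glia alone (0.73, chosen after seeing the data).

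*Slc16a1* had 177 ± 46.6 CPM (SD, n = 4) in Müller glia, 141 and 173 CPM in cone-like and 108 and 164 CPM in rod-like cells, which all overlapped. Bipolar-like cells had 18.4 and 10.8 CPM and microglia-like cells 2.36, 10.8, 14.6 and 7.48 CPM, under every library of the other classes. Müller glia were higher than bipolar-like cells by 3.65 (standard error 0.49, adjusted p = 3.46e-05, higher in 2 of 2) and than microglia-like cells by 3.61 (standard error 0.37, adjusted p = 1.49e-06, higher in 4 of 4) on the log2 scale. From rod-like and cone-like cells they differed by 0.47 and 0.59 (standard errors 0.41 and 0.42), and neither passed.

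Cells that met the Müller glia rule and also held pigment epithelium markers at 0.5% or more carried a large share of some members in 1 library. They numbered 0, 23, 3 and 60 in the 4 libraries. In Yap5SA AAV replicate 3 they held 5.95% of the UMIs of Müller glia but 26.5% of those of *Slc16a1*, 19.2% of *Aldoa*, 14.6% of *Slc2a1* and 13.7% of *Ldhb*. Their shares of *Aldoc* and *Hk2* there were 0.376% and 0.402%, and they held 0 of 192 *Pfkfb3* UMIs. With every cell left out that held another class's markers, an alternative chosen after seeing the data, the members called against each class were 7, 9, 5 and 6, as many as before. These numbers are for microglia-like, rod-like, bipolar-like and cone-like cells. In the same order 8568, 7462, 6731 and 5776 of 16654 genes were called.

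**Figure D3:**
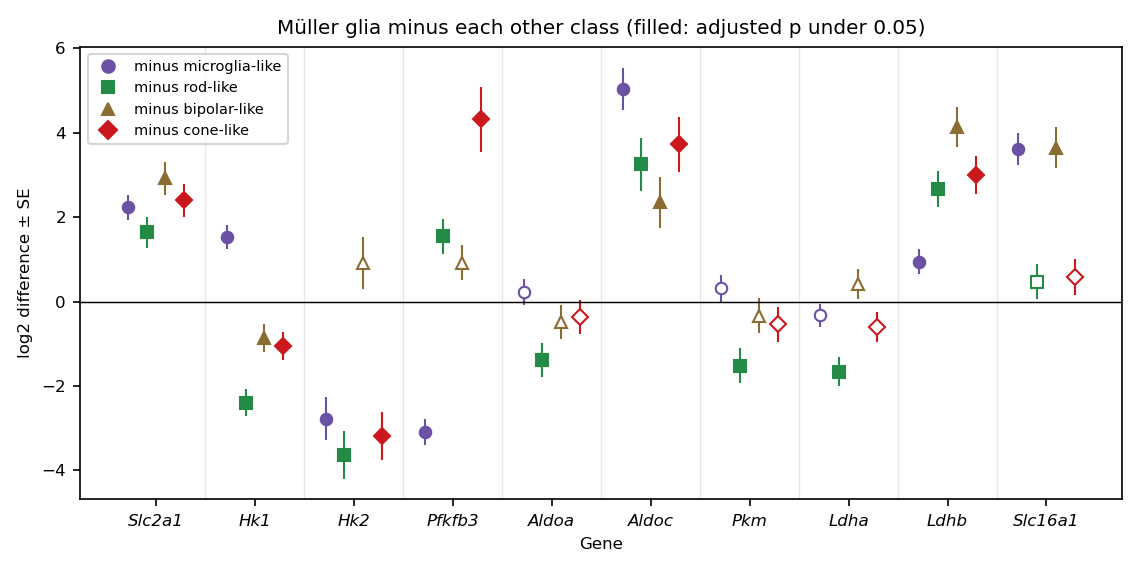
Log2 difference of each gene between Müller glia and each other class, with its standard error; filled points have an adjusted p under 0.05. *Slc2a1*, *Aldoc* and *Ldhb* are above 0 and filled against all 4 classes, from 0.95 for *Ldhb* against microglia-like cells to 5.04 for *Aldoc* against the same cells, and *Hk2* runs from −3.63 against rod-like to 0.92 against bipolar-like cells.

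Whether the levels of the AAV conditions differed in their contrast to microglia-like cells was tested with an interaction term. EdgeR called 0 of 14390 genes, with 380 at an unadjusted p under 0.05, and DESeq2 was not run on it. The size of the interaction was largest for *Aldoc* (1.05, standard error 0.81) and *Slc2a1* (−0.93, standard error 0.66).

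The isozyme pairs were then compared as shares, to ask which paralog supplied most transcripts of a step in each class. Shares are of UMIs at the 3′ end and are not corrected for differences in capture between paralogs, but they do not depend on the scaling of libraries. In each library Müller glia had the highest *Aldoc* and *Ldhb* shares of the classes compared. With cells thinned to 1000 UMIs this failed for *Ldhb* in mKate2 AAV replicate 1, where microglia-like cells had 50% on 16 UMIs and Müller glia 49.6%. In the 2 libraries with bipolar-like cells the *Hk2* share of Müller glia lay between that of bipolar-like cells, the lowest, and those of the other classes. With thinned cells this failed in Yap5SA AAV replicate 3, where bipolar-like cells had 46.7% on 15 UMIs and Müller glia 33.9%.

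Of the *Aldoa* and *Aldoc* UMIs of Müller glia, *Aldoc* made up 67.5% (exact Clopper-Pearson 95% interval 66.6 to 68.3) and 65.4% (64.8 to 65.9) with mKate2 AAV. It made up 58.7% (57.8 to 59.7) and 57.0% (56.0 to 57.9) with Yap5SA AAV. These intervals cover counting error only. Both libraries of Yap5SA AAV were thus below both of mKate2 AAV, without overlap. Means were 66.4% ± 1.5 for mKate2 AAV and 57.8% ± 1.26 for Yap5SA AAV (SD, n = 2 libraries each), which differ by −8.57 percentage points. A two-sided exact permutation test gave p = 0.33, the smallest p that 2 libraries against 2 can give. Without the cells that held another class's markers, an alternative chosen after seeing the data, the shares were 67.5%, 67.4%, 59.0% and 64.3% and the difference −5.78 points. With cells thinned to 1000 UMIs the difference was −5.29 points.

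In the other classes *Aldoc* was the minor aldolase. Its share was 3.33%, 6.23%, 4.92% and 1.44% in microglia-like cells of the 4 libraries, 5.23% and 6.93% in rod-like, 7.49% and 9.56% in cone-like and 16.7% and 20.6% in bipolar-like cells. No library of these classes reached the Müller glia. The difference from microglia-like cells was 58.2 percentage points (exact sign-flip test, two-sided, p = 0.13, the smallest that 4 libraries can give). From rod-like, cone-like and bipolar-like cells the differences were 55.1, 52.6 and 42.5 points, and the exact sign-flip test with 2 libraries gave p = 0.5 for each, the smallest it can give.

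*Ldhb* made up 54.1% and 50.2% of *Ldha* and *Ldhb* UMIs in Müller glia with mKate2 AAV, and 39.2% and 61.5% with Yap5SA AAV. The 2 libraries of Yap5SA AAV lay on either side of the controls (difference of means −1.85 points, p = 1 by the same exact test). It was 9.31 points without Yap5SA AAV replicate 1 and −13.0 without Yap5SA AAV replicate 3. In rod-like cells the share was 8.13% and 5.53%, in cone-like cells 11.7% and 10.1% and in bipolar-like cells 10.9% and 8.60%. Microglia-like cells had 31.9%, 35.9%, 15% and 45.4%, in each library less than the Müller glia of that library, apart from the thinned cells named above. Müller glia exceeded microglia-like cells by 19.2 points (exact sign-flip test, two-sided, p = 0.13) and rod-like, bipolar-like and cone-like cells by 49.0, 46.1 and 45 points (p = 0.5 each).

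*Hk2* made up 15.8% and 40.2% of *Hk1* and *Hk2* UMIs in Müller glia with mKate2 AAV and 30.5% and 43.2% with Yap5SA AAV. The conditions overlapped (difference of means 8.85 points, p = 0.667 by the same exact test). It was −3.37 points with mKate2 AAV replicate 1 left out and 21.1 points with mKate2 AAV replicate 2 left out. With cells thinned to 1000 UMIs the shares of the 4 libraries were 18.4%, 18.3%, 18.8% and 33.9%. Thinning also gives each cell the same weight, and the 2 effects were not separated. In microglia-like cells *Hk2* was the main hexokinase of the pair, at 88.4%, 87.3%, 93.0% and 92.4%, with a difference of −57.9 points for Müller glia (exact sign-flip test, two-sided, p = 0.13). Rod-like cells had 50.1% and 65.2%, cone-like cells 54.4% and 82.6% and bipolar-like cells 13.7% and 14.9%.

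**Figure D4:**
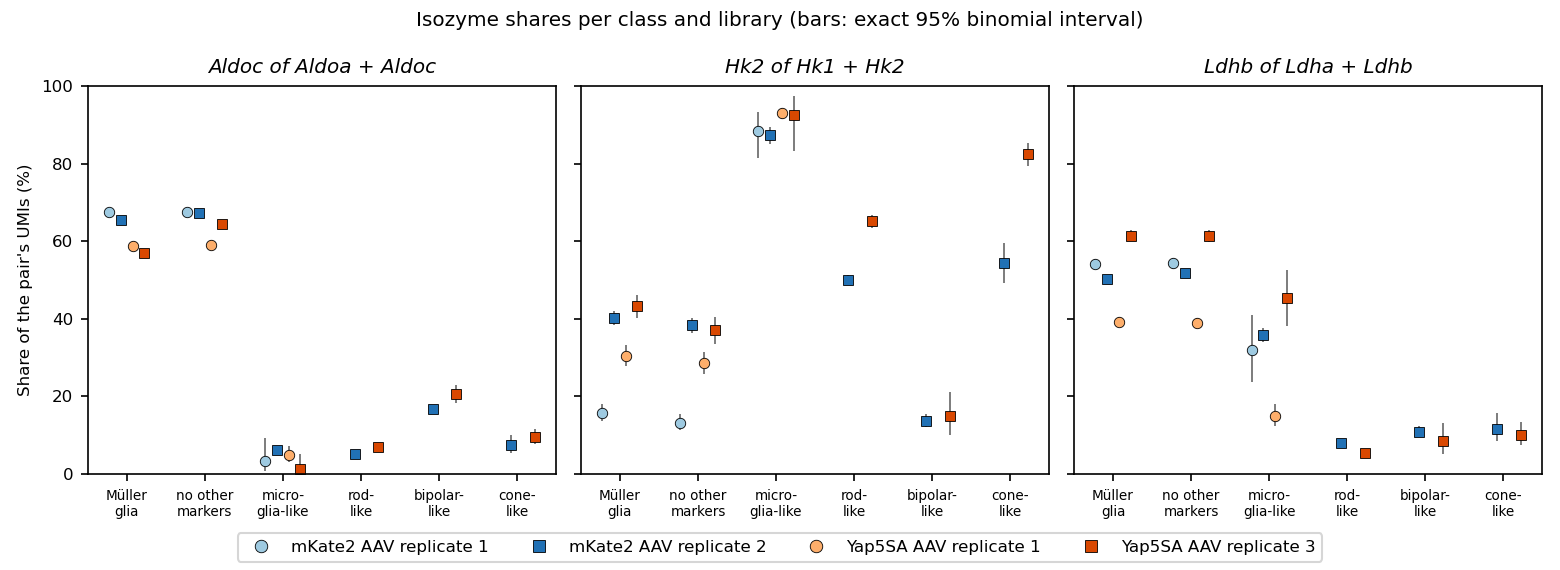
Share of *Aldoc*, *Hk2* and *Ldhb* in the UMIs of each isozyme pair, in percent, by class and library, with exact 95% binomial intervals as bars. *Aldoc* makes up 57.0% to 67.5% in Müller glia and at most 20.6% in any other class, and *Ldhb* at most 11.7% in rod-like, cone-like and bipolar-like cells.

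The promoters of the aldolase and lactate dehydrogenase pairs are shown because the shares of these paralogs differed between classes. They are the 250 bases before the outermost start of each gene, 5′ to 3′ on the gene's strand, from RefSeq in the GRCm38.p6 assembly, which is another build than the one used above for gene positions. All 10 members were found in that source, with 17 starts. Capitals mark the core of the hypoxia response element (ACGTG or GCGTG) and the CRX and OTX core (TAATCC), searched on both strands; CACGTG holds ACGTG on both strands and counts as 2 matches.
Aldoa (chr7:126800448-126800697, minus strand): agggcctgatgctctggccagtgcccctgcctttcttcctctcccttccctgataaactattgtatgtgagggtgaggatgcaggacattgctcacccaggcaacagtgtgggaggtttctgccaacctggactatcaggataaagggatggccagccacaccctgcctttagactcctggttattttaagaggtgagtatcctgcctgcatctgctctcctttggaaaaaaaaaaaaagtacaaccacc
Aldoc (chr11:78322823-78323072, plus strand): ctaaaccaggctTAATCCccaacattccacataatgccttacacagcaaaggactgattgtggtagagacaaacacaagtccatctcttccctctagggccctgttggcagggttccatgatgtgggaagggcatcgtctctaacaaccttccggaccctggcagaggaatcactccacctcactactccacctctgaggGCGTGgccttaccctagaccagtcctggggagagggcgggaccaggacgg
Ldha (chr7:46845554-46845803, plus strand): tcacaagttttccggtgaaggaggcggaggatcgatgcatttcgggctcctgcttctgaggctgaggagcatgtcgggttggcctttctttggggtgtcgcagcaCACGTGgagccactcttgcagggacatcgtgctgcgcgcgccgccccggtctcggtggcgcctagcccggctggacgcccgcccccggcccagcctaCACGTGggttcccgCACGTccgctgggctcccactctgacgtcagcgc
Ldhb (chr6:142507958-142508207, minus strand): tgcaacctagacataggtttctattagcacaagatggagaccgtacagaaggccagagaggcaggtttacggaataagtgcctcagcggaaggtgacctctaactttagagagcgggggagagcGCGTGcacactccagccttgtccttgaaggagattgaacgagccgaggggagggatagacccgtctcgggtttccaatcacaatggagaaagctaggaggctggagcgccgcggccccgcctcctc

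The *Ldha* window held 5 matches to ACGTG, the *Ldhb* and *Aldoc* windows 1 match to GCGTG each, and the *Aldoa* window 0. *Aldoc* also held 1 match to TAATCC. Inner starts differed from these. Each of the 2 further *Aldoa* starts held 1 match to ACGTG, in windows that overlap, so both matches may be the same site. The second *Ldha* start held 1 match to GCGTG and 1 to TAATCC, and the second *Aldoc* start 1 to GCGTG. The contrast within a pair thus depends on the start chosen. At least 1 core of the hypoxia response element stood in the outermost window of 7 of the 10 members. Over all their starts it stood in 14 of 17 windows, with the 2 overlapping *Aldoa* windows counted singly, beside 38.6% of 32851 promoters of the same length. TAATCC stood in the outermost window of 1 of the 10 and in 2 of the 17 windows, beside 6.25% of the promoters. These matches describe letters in the windows and say nothing of binding.

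Sums of counts weigh deep cells most, so Müller glia with at least 5000 UMIs (842, 751, 588 and 340 cells in the 4 libraries) were compared with those of 1000 to under 5000 UMIs (656, 2147, 215 and 1001 cells) of the same library. The question was whether the members keep their share of a cell's transcripts across depth. The transporters *Slc2a1* and *Slc16a1* and the enzymes *Hk2* and *Pfkfb3* took a larger share in deep cells. *Aldoa*, *Aldoc*, *Pkm*, *Ldha* and *Ldhb*, which act from the aldolase step to lactate, took a smaller one. EdgeR called 9 of the 10 members, 4 higher and 5 lower in deep cells, beside 34.5% of 13368 genes (19.1% higher and 15.4% lower). The number of genes called, 4607, was 2197 without mKate2 AAV replicate 2 and 2122 without Yap5SA AAV replicate 3, with 4 and 5 members called. With a Müller glia marker share of at least 2% it was 1466, with 4 members called (*Slc2a1*, *Slc16a1*, *Aldoc* and *Pkm*).

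*Slc2a1* had 235, 339, 194 and 417 CPM in deep cells and 101, 91.3, 101 and 158 CPM in shallow cells of the 4 libraries. Each library was thus higher in deep cells, and the 2 sets did not overlap (log2 difference 1.15, standard error 0.20, adjusted p = 0.00286, higher in 4 of 4). In cells of 1000 to under 2000, 2000 to under 5000, 5000 to under 10000 and at least 10000 UMIs its mean level was 102, 117, 210 and 317 CPM. In the same order *Slc16a1* had 89.6, 102, 192 and 194 CPM, *Hk2* 20.0, 22.4, 29.2 and 60.3 CPM and *Pfkfb3* 10.3, 6.70, 8.88 and 30.4 CPM. The means of *Aldoa* (462, 538, 560 and 368 CPM), *Ldhb* (313, 326, 339 and 210 CPM) and *Aldoc* (911, 973, 943 and 540 CPM) were below those of the shallowest cells at 10000 UMIs and more alone. *Pkm* had 409, 412, 395 and 247 CPM, with most of its fall in the deepest cells, and *Ldha* 340, 333, 283 and 213 CPM. *Slc16a1* had 235, 150, 146 and 250 CPM in deep and 120, 90.7, 46.9 and 136 CPM in shallow cells (log2 difference 0.79, standard error 0.21, adjusted p = 0.0158, higher in 4 of 4). The call on *Slc16a1* was lost without mKate2 AAV replicate 1 (0.74) and without Yap5SA AAV replicate 1 (0.61).

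*Hk2* had 15.9, 94.2, 36.3 and 71.6 CPM in deep and 9.02, 16.2, 16.2 and 46.2 CPM in shallow cells (log2 difference 1.12, standard error 0.32, adjusted p = 0.0224, higher in 4 of 4), and 0.61 and not past the test without mKate2 AAV replicate 2. *Pfkfb3* had 8.33, 47.3, 15 and 33.3 CPM in deep and 9.67, 4.09, 10.8 and 5.63 CPM in shallow cells. Only mKate2 AAV replicate 1 had less in deep cells (log2 difference 1.69, standard error 0.55, adjusted p = 0.0379, higher in 3 of 4). The *Pfkfb3* call was lost without mKate2 AAV replicate 2 (0.85), without Yap5SA AAV replicate 3 (1.33) and by DESeq2 (1.40), and the difference was 2.39 without mKate2 AAV replicate 1.

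*Aldoc* had 653, 711, 585 and 541 CPM in deep and 767, 1251, 732 and 1082 CPM in shallow cells (log2 difference −0.82, standard error 0.21, adjusted p = 0.0135, lower in 4 of 4). *Pkm* had 253, 308, 268 and 281 CPM in deep and 367, 458, 355 and 463 CPM in shallow cells, 2 sets without overlap (log2 difference −0.79, standard error 0.17, adjusted p = 0.00787, lower in 4 of 4). *Ldha* had 193, 231, 308 and 175 CPM in deep and 291, 300, 438 and 308 CPM in shallow cells (log2 difference −0.80, standard error 0.17, adjusted p = 0.00724, lower in 4 of 4). For *Aldoa* and *Ldhb* the log2 differences were −0.57 and −0.64 (standard errors 0.17 and 0.20, adjusted p = 0.0292 and 0.0362, each lower in 4 of 4). *Hk1* had −0.41 (standard error 0.19) and did not pass. Calls were lost for *Aldoa* with no filter on low counts (−0.54) and without mKate2 AAV replicate 1 (−0.61), mKate2 AAV replicate 2 (−0.55) or Yap5SA AAV replicate 3 (−0.54). The same held for *Aldoc* and *Ldhb* without mKate2 AAV replicate 2 (−0.72 and −0.47) or Yap5SA AAV replicate 3 (−0.69 and −0.56).

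Other properties moved with depth. The median mitochondrial share was 2.43%, 3.93%, 2.55% and 1.70% in deep and 4.33%, 8.03%, 4.07% and 6.60% in shallow cells, and the median share of ribosomal protein genes was 3.49%, 6.19%, 4.66% and 2.49% against 8.09%, 11.5%, 11.4% and 9.50%. The 10 dissociation stress genes summed to 717, 26434, 2008 and 17313 CPM in deep and 360, 3137, 919 and 2227 CPM in shallow cells. Pigment epithelium markers summed to 9.30, 553, 190 and 4816 CPM in deep and 4.51, 250, 496 and 1189 CPM in shallow cells, so their direction differed between libraries. Their part in the result was not tested. The difference of these contrasts between the AAVs was tested by an interaction term, where edgeR called 0 of 13368 genes, with 92 at an unadjusted p under 0.05; DESeq2 was not run on it. Of the isozyme shares, *Aldoc* made up 60.4% ± 6.35 in deep and 64.5% ± 3.96 in shallow cells (SD, n = 4, exact sign-flip test, two-sided, p = 0.375). In the same order *Hk2* made up 36.0% ± 14.8 and 18.0% ± 10.5 (SD, n = 4, p = 0.13 by the same exact sign-flip test). *Ldhb* made up 51.3% ± 10 and 48.5% ± 11.6 (SD, n = 4, p = 0.5 by the same exact sign-flip test).

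**Figure D5:**
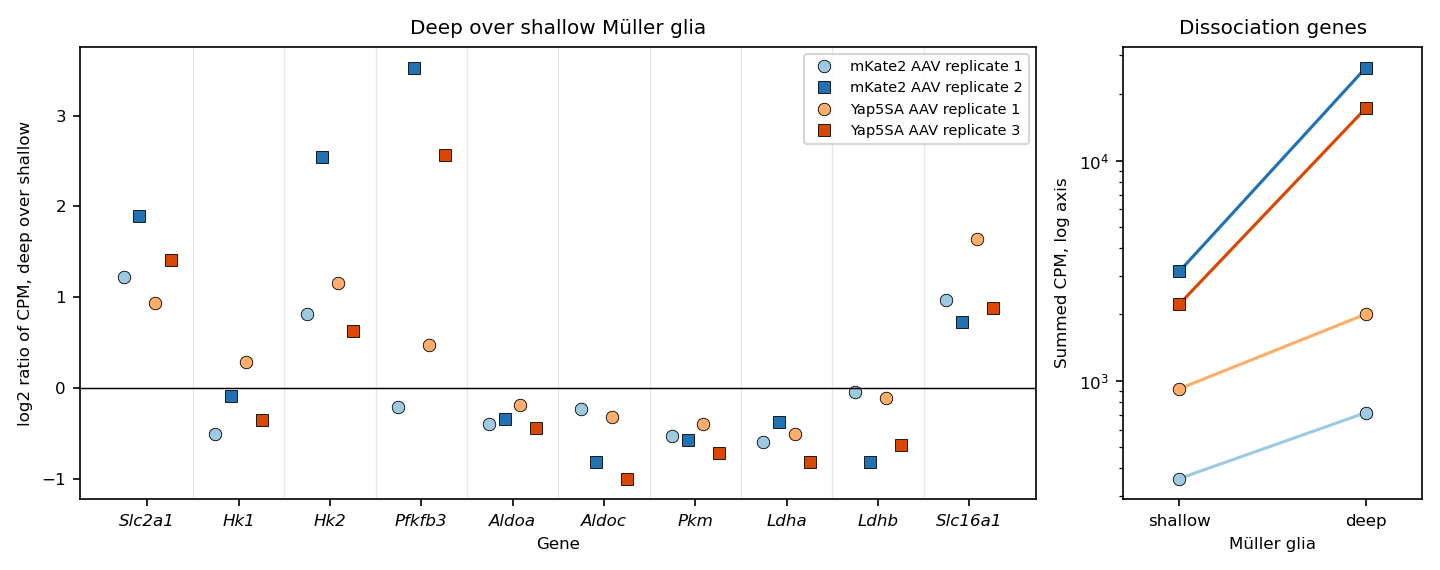
Left, log2 ratio of CPM in deep over shallow Müller glia for each gene, with 1 point per library; right, summed CPM of 10 dissociation stress genes in the same cells on a log axis. *Slc2a1* and *Slc16a1* lie above 0 in all 4 libraries (0.94 to 1.89 and 0.73 to 1.64), *Aldoc*, *Pkm* and *Ldha* below 0 in all 4, and the stress genes reach 26434 CPM in deep cells of mKate2 AAV replicate 2.

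Further genes of glucose use were followed in 6 lists. Between the AAVs 0 genes of these lists were called by edgeR or DESeq2. The medians of the log2 differences were −0.16 for 16 other glycolysis enzymes, −0.00015 for 7 glucose and lactate transporters, 0.08 for 10 genes of pyruvate entry, −0.07 for 7 glycogen genes, −0.03 for 7 pentose phosphate genes and −0.09 for 12 hypoxia response genes, beside −0.03 for all genes. *Gapdh*, the dehydrogenase after the aldolase step, had 1689 and 1869 CPM with mKate2 AAV and 2116 and 1967 CPM with Yap5SA AAV. *Pgk1*, a kinase, had 261 and 296 against 239 and 268 CPM. *Eno1*, an enolase, had 2749 and 1734 against 2323 and 2162 CPM, and *Bsg*, the chaperone of the lactate transporters, 1385 and 1320 against 1413 and 1434 CPM. *Hif1a* had 196 and 199 against 225 and 201 CPM, and *Slc16a3* 0.673 and 2.04 against 1.87 and 0.638 CPM. *Slc16a8* had 0, 7.91, 1.87 and 71.6 CPM in the 4 libraries. In the 3 that held it, 98.6%, 100% and 99.6% of its UMIs lay in the cells with pigment epithelium markers, so its ratios to other classes below rest on those cells and not on Müller glia at large.

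Against microglia-like cells, 8 of 16 other glycolysis enzymes were higher in Müller glia, 2 were lower and 6 did not pass (median log2 difference 0.77, beside 0.30 for all genes and 0.63 for the 10 members). The counts of the 6 lists here stand beside 52.1% of all genes called, 30.6% higher and 21.6% lower. *Hk3*, a hexokinase of myeloid cells, had a log2 difference of −7.33 (standard error 0.65) and *Eno1* one of 3.59 (adjusted p = 2.22e-06, higher in 4 of 4 libraries), both past the test. *Pgk1* had 0.90 and *Hkdc1* 4.89 and both passed, while *Gapdh* at 0.47 did not. *Hkdc1* was 4.07 without mKate2 AAV replicate 2 and 7.16 without Yap5SA AAV replicate 1. The call on *Pgk1* was lost without mKate2 AAV replicate 1 (0.67) and without Yap5SA AAV replicate 1 (0.79). Of 7 transporters, 2 were higher, 3 lower and 2 not past the test (median −0.49). Among these *Bsg* was higher by 2.48 and *Slc16a3*, which encodes the lactate exporter MCT4, lower, at −3.34. *Slc16a8* had 0 UMIs in microglia-like cells, at least 44.1-fold less than in Müller glia, by a floor of 3 counts over the class; in mKate2 AAV replicate 1 both were at 0. Pyruvate entry had 5 of 10 genes higher and 1 lower (median 0.55), with *Pdk4* at 0 UMIs and at least 5.83-fold less in microglia-like cells. Glycogen genes had 5 of 7 higher (median 1.19), pentose phosphate genes 1 of 7 higher and 4 lower (median −0.93), and hypoxia response genes 7 of 13 higher and 2 lower (median 0.87), with *Hif1a* at −0.24 and not past the test. Without Yap5SA AAV replicate 3 the pentose phosphate genes called fell from 5 to 3, and DESeq2 called 3 transporters.

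Against rod-like cells, 3 of 16 other glycolysis enzymes were higher in Müller glia and 5 lower (median −0.63, beside 0.23 for all genes and −0.46 for the members). Of all genes 44.7% were called in this comparison, 27.3% higher and 17.4% lower. *Hkdc1* was higher by 5.18 and *Eno1* by 1.99, while *Gapdh* (−0.18) and *Pgk1* (0.37) did not pass. *Eno1* was 2.69 without Yap5SA AAV replicate 3. Transporters had 3 of 7 higher and 1 lower (median 1.48), with *Bsg* at 2.26, *Emb* at 3.45 and *Slc16a3* at −2.88. *Emb* did not pass without mKate2 AAV replicate 2 (2.13), nor *Slc16a3* without Yap5SA AAV replicate 3 (−2.15); with the other of these 2 libraries left out they were 5.51 and −3.63. *Slc16a8*, with 1 UMI in rod-like cells, had a ratio of 235 (counting interval 42 to 9.28e+03). Pyruvate entry had 2 of 10 higher and 2 lower (median 0.68), glycogen 3 of 7 higher (0.77) and pentose phosphate 1 of 7 higher (0.54). Hypoxia response genes had 2 of 13 higher and 4 lower (−0.08), with *Adm* at 3.74 and *Hif1a*, a hypoxia-inducible factor, at −2.19. The call on *Adm* was lost without mKate2 AAV replicate 2 (3.70), where the hypoxia response genes called fell from 6 to 3. Without Yap5SA AAV replicate 3 other glycolysis enzymes fell from 8 to 5 and pyruvate entry from 4 to 2, and DESeq2 called 3 pentose phosphate genes.

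For bipolar-like cells, 2 of 16 other glycolysis enzymes were higher in Müller glia and 5 lower (median −0.73, beside 0.19 for all genes and 0.92 for the members), with *Eno1* at 3.23 and *Gapdh* and *Pgk1* at 0.38 and 0.46, not past the test. The share of all genes called was 39.4%, with 23.7% higher and 15.7% lower. Transporters had 2 of 7 higher and 3 lower (0.41), with *Slc16a7* at −5.50, *Slc16a3* at −3.32 and *Bsg* at 2.29, and *Slc16a8* at a ratio of 214 on 1 UMI (counting interval 38.3 to 8.47e+03). Pyruvate entry had 4 of 10 higher and 2 lower (0.46; *Pdk4* at least 4.94-fold), glycogen 3 of 7 higher and 1 lower (0.90), and pentose phosphate 5 of 7 higher (1.20). Hypoxia response genes had 3 of 13 higher and 2 lower (0.45), with *Epas1* at 7.28 and *Hif1a* at −1.87. Without mKate2 AAV replicate 2 *Epas1* was 5.68, *Slc16a7* −4.77 and *Slc16a3* −4.21, and without Yap5SA AAV replicate 3 they were 7.92, −6.27 and −2.66. Without mKate2 AAV replicate 2 the genes called fell from 5 to 1 for pentose phosphate, from 6 to 2 for pyruvate entry and from 5 to 3 for hypoxia response. Without Yap5SA AAV replicate 3 they fell to 0 for pentose phosphate, to 2 for pyruvate entry and from 7 to 3 for other glycolysis enzymes. DESeq2 called 3 transporters.

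In cone-like cells the counts were 4 higher and 3 lower of 16 glycolysis enzymes (0.27, beside 0.45 for all genes and 0.11 for the members), 3 of 7 transporters higher (2.51), 3 of 10 higher and 1 lower for pyruvate entry (0.78), 4 of 7 higher and 1 lower for glycogen (2.21), 3 of 7 higher for pentose phosphate (0.72) and 4 of 13 higher for hypoxia response (0.83). Beside these counts, 34.2% of all genes were called, 23% higher and 11.2% lower in Müller glia. *Eno1* was at 3.06, *Bsg* at 2.51 and *Pygb*, a glycogen phosphorylase, at 3.75, all past the test, while *Gapdh*, *Pgk1* and *Hif1a* did not pass (0.89, 0.99 and 0.51). With 1 library left out *Gapdh* ran from 0.31 to 1.42 and *Pgk1* from 0.36 to 1.61. *Eno1* was 2.32 without mKate2 AAV replicate 2 and 3.90 without Yap5SA AAV replicate 3. *Epas1* and *Slc16a8* had 0 UMIs in cone-like cells, at least 74.4-fold and 11.3-fold less than in Müller glia, and *Hkdc1*, with 3 UMIs there, had a ratio of 21.4 (counting interval 7.31 to 104). *Slc16a3* also had 0 UMIs in cone-like cells and did not pass. Without mKate2 AAV replicate 2 the genes called fell from 7 to 4 for glycolysis enzymes, from 4 to 2 for pyruvate entry, from 3 to 1 for pentose phosphate and from 4 to 1 for hypoxia response. Without Yap5SA AAV replicate 3 they fell from 3 to 1 for transporters, of which DESeq2 called 1, and to 1 for pentose phosphate. Medians include genes at 0 UMIs in a class, whose fitted values depend on the prior count. DESeq2 did not call *Slc16a8* against any class, nor *Pdk4* against microglia-like or bipolar-like cells, and *Slc16a8* against cone-like and *Pdk4* against bipolar-like cells did not pass without Yap5SA AAV replicate 3.

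Between deep and shallow Müller glia, 7 of 14 other glycolysis enzymes were lower in deep cells and 1 higher (median −0.52, beside 0.12 for all genes and −0.49 for the members). Among all genes tested 34.5% were called, 19.1% higher and 15.4% lower in deep cells. *Gapdh*, *Pgk1* and *Eno1* had log2 differences of −0.81, −0.74 and −0.78 (adjusted p = 0.0148, 0.0137 and 0.0207, each lower in 4 of 4 libraries). These calls were lost without mKate2 AAV replicate 2 (−0.72, −0.66 and −0.65), and those on *Pgk1* and *Eno1* also without Yap5SA AAV replicate 3 (−0.65 and −0.68). *Pfkfb4*, a relative of *Pfkfb3*, was higher by 2.12, and did not pass without mKate2 AAV replicate 2 (1.52) or Yap5SA AAV replicate 3 (2.04), and was 3.13 without mKate2 AAV replicate 1. Of 5 transporters 3 were higher (median 1.33), among them *Slc2a3*, the glucose transporter GLUT3, by 2.99 (standard error 0.32, adjusted p = 0.00127, higher in 4 of 4), and *Slc16a8* by 1.34, higher in 2 of the 3 libraries that held it, whose call was lost without mKate2 AAV replicate 2 (0.95) or Yap5SA AAV replicate 3 (1.36). The *Slc16a8* difference also rests on the cells with pigment epithelium markers, which held nearly all of its UMIs. Pyruvate entry had 4 of 10 lower (−0.05), glycogen 2 of 7 higher (−0.13), pentose phosphate 3 of 7 lower (−0.34) and hypoxia response 3 of 12 higher and 4 lower (0.19), with *Adm* at 3.02 (2.43 without Yap5SA AAV replicate 3) and *Hif1a* at −0.14, the latter not past the test. *Bsg* at 0.36 did not pass either, but passed with a limit of 3000 UMIs (0.49). Without mKate2 AAV replicate 2 the genes called were 2 other glycolysis enzymes, 3 hypoxia response genes and 1 gene of each other list, and without Yap5SA AAV replicate 3 they were 3, 3 and 1 of each. Glycogen genes also fell to 1 without Yap5SA AAV replicate 1. DESeq2 called 1 transporter and 1 glycogen gene.

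Likeness was measured by Pearson's r of log2(CPM + 1) over 14 sums of a class in a library, which share libraries and differ in depth, so that r is a description without a test. Among the members r was highest for *Aldoa* and *Pkm* (0.962), followed by *Hk1* and *Aldoa* (0.836), *Slc2a1* and *Slc16a1* (0.805), *Hk1* and *Pkm* (0.797) and *Pkm* and *Ldha* (0.790). It was 0.373 for the 2 aldolases, −0.235 for *Ldha* and *Ldhb* and lowest for *Hk1* and *Pfkfb3* (−0.803). Of 11592 genes outside the members with at least 20 CPM in a sum, those most like *Slc2a1* were *Actn4*, *Gbe1* and *Efhd1* (0.967, 0.956 and 0.948). For *Aldoc* they were *Proca1*, *Myo6* and *Celsr2* (0.974, 0.973 and 0.972), for *Ldha* *Gm42716*, *C430042M11Rik* and *Slc17a1* (0.954, 0.941 and 0.939) and for *Slc16a1* *Add3*, *Rax* and *Lrrc51* (0.976, 0.956 and 0.949).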

How the data were processed

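The authors deposited UMI counts per gene and cell, made by Cell Ranger on GRCm39 (8.0.0 per the labels, 8.0.0 or 9.0.1 per the file headers), not normalized, and restricted to barcodes it called cells. Libraries held between 13614102 and 50938304 UMIs with mKate2 AAV and between 13132765 and 16035182 with Yap5SA AAV. Yap5SA AAV replicate 2 repeats the cells of replicate 1 and was left out. Cells had at least 1000 UMIs and at most 15% mitochondrial counts, and a class was given to cells with at least 0.5% of UMIs in its markers; cells that met the Müller glia limit counted as Müller glia whatever other markers they held. Doublets were not scored, and an alternative left out 385 Müller glia with another class's markers.

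Counts were summed per library and class (at least 20 cells in each of 2 or more libraries), and levels are CPM of these sums. Differences came from edgeR's quasi-likelihood test on all genes after filterByExpr and TMM scaling, with Benjamini-Hochberg adjustment at 0.05, two-sided, and the library as a block wherever classes or depths were compared. Isozyme shares were compared by two-sided exact tests, permuting libraries between conditions or flipping signs within libraries. Genes named from the 6 lists are the called ones with the 4 largest log2 differences and always *Gapdh*, *Pgk1*, *Eno1*, *Slc16a3*, *Bsg* and *Hif1a*; *Slc16a3* did not pass the filter between depths. The members and lists were chosen with earlier results of these data known.

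Alternatives were DESeq2, no filter on low counts, the Cell Ranger version as a term, the 5 libraries singly with and without a block for the replicate number, the mean of the shared libraries, a fit of Müller glia and 1 class alone, marker, depth and mitochondrial limits, thinning to 1000 UMIs, and leaving out each library. Tools were R 4.3.3 with edgeR 4.0.16, limma 3.58.1 and DESeq2 1.42.0, and matplotlib 3.10.9, scipy 1.17.1, pandas 2.3.3 and numpy 2.4.6 in Python 3.11.15. The steps were tested on simulated data.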

Additional observations from a re-analysis of the deposited data

Results flagged for a closer look

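Yap5SA AAV replicate 2, which repeats the cells of replicate 1 and is in no comparison, had *Ldha* at 321 CPM in its Müller glia, above the 205 and 251 CPM of the mKate2 AAV libraries. Replicate 1 had 315 CPM and replicate 3, with other cells, 217 CPM. The other entry with the symbol *Aldoa*, which no comparison uses, held up to 9 UMIs in a sum, above the limit of 3 counts that a count of 0 allows.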

How the results depend on the processing

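Over 166 results and 1826 values under alternatives, 1579 kept their direction and their side of the threshold, 74 no longer passed, 18 passed in addition, 78 counts or shares moved by more than 1.5 times or 1 SD, and 77 changed sign, 57 of these between the AAVs, where 0 genes were called under any alternative. The cause was not tested. A lone library left in a condition is assumed to vary like the other groups.

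Between the AAVs, leaving out 1 library gave log2 differences of −0.49 to 0.38 for *Slc2a1*, −0.58 to 0.052 for *Hk1*, −0.73 to 1.75 for *Hk2*, −1.02 to 1.23 for *Pfkfb3*, −0.14 to 0.59 for *Aldoa*, −0.40 to 0.21 for *Pkm*, −0.16 to 0.39 for *Ldha*, −0.41 to 0.40 for *Ldhb* and −0.42 to 0.22 for *Slc16a1*. The ranges were −0.074 to 0.29 for *Gapdh*, −0.27 to 0.17 for *Eno1*, −1.21 to 0.90 for *Slc16a3*, −0.092 to 0.06 for *Bsg* and −0.10 to 0.14 for *Hif1a*. DESeq2 gave −0.0058 for *Slc2a1* and −0.0086 for *Hif1a*, and no filter −0.0025 and −0.003. The version term gave −0.039 for *Slc2a1* and 0.03 for *Pfkfb3*. The 5 libraries singly gave −0.15 for *Slc2a1*, −0.12 for *Hk2* and −0.094 for *Ldhb*, with 307 genes at an unadjusted p under 0.05. With the replicate block, where edgeR called 0 genes and 855 had an unadjusted p under 0.05, *Slc2a1* had −0.49, *Hk2* −0.022, *Aldoa* −0.033, *Ldhb* −0.43 and *Slc16a3* 0.41. Libraries of number 1 also share the Cell Ranger version and those of number 2 do not. The correlation of their log2 deviations from the mean of their condition was 0.406 over 9670 genes for number 1. The −0.408 for number 2 follows from this value and is no second observation. The 2 mKate2 AAV libraries deviate from their mean by equal and opposite amounts, and Yap5SA AAV replicate 2 repeats replicate 1. Cells of at least 5000 UMIs gave *Hk2* −0.15, *Slc16a1* 0.0052, *Bsg* 0.039 and *Hif1a* −0.0092, and a mitochondrial limit of 5% *Slc2a1* −0.044, *Hk2* −0.31, *Bsg* 0.077 and *Hif1a* −0.033. A marker share of at least 2% gave *Pfkfb3* 0.19, *Aldoa* −0.019 and *Ldhb* −0.037, and thinning 0.21, −0.025 and −0.026. Without cells holding another class's markers *Slc2a1* had −0.039, *Hk2* −0.14, *Ldhb* −0.026 and *Slc16a3* 0.052.

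Against microglia-like cells 4253 genes were called with thinning, and *Pkm* ran from −0.063 to 0.58 over left-out libraries. Against rod-like cells these gave 4023 to 7630 genes, 4 to 9 members and *Gapdh* −0.54 to 0.31, which had 0.052 with no filter, 0.18 at 2% and 0.42 with thinning. Against bipolar-like cells they gave 2836 to 6745 genes, 3 to 5 members and *Pkm* −0.66 to 0.021. There a fit of both classes alone called 9 members and 8824 of 15300 genes, the 2% limit gave *Hk2* −0.37 and *Pfkfb3* −0.35, thinning *Hk2* −0.77, *Pfkfb3* −0.34, *Aldoa* 0.20 and *Pkm* 0.22, and deep Müller glia alone *Gapdh* −0.031. Against cone-like cells left-out libraries gave 2851 to 5730 genes, *Aldoa* −1.05 to 0.25 and *Ldha* −1.25 to 0.022, and thinning 2589 genes, 3 members, *Aldoa* 0.35 and *Pkm* 0.19. Between depths left-out libraries gave 2122 to 4727 genes and 4 to 8 members, and the 2% limit 1466 genes and 4 members. The difference in *Aldoc* share was −5.29 points with thinning, −6.04 at 2% and −5.78 without marker-bearing cells. Left-out libraries gave −3.37 to 21.1 points for the *Hk2* share and −13.0 to 9.31 for *Ldhb*. *Pfkfb3* had 2 UMIs in cone-like cells.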
